A study of Mus musculus with 21 samples.

Results

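The genes described here are 10 that govern the step from G1 into DNA replication: Cdkn1a, Cdkn1b, Rb1, Rbl1, Rbl2, E2f1, E2f7, E2f8, Ccnd1 and Ccnd2. They were chosen by symbol around the known TRIM71 and microRNA targets Cdkn1a, Rbl1, Rbl2 and E2f7, and all 10 were found among the 22512 genes of the table. The libraries were made from total RNA of mouse embryonic stem cells, with 7 groups of 3 biological replicates and 21 libraries in all. Every group derives from 129S6/SvEvTac cells that carry the GFP reporter GFP_5xT71BS and a stably transfected FLAG-Cas9, grown in serum and LIF on gelatin. In Experiment 1 the untransfected parental cells (W) stood beside Trim71-/- cells (Trim71KO) and Ago2-/- cells (Ago2KO). In Experiment 2 the parental cells received a pCIP plasmid that encodes an mCherry fusion of the T6B peptide, either wild-type (T6B_WT) or mutant (T6B_MUT), and Trim71-/- or Ago2-/- cells received an empty plasmid (Trim71KO_empty and Ago2KO_empty). Experiment 2 holds no unedited cells with empty plasmid here, so T6B_MUT was the control, and in its knockout comparisons plasmid and genotype differ together and cannot be told apart. How many clones stand behind each edited line is not given in the sources used here.

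D cyclins bind the kinases CDK4 and CDK6, which phosphorylate the pocket proteins RB1, RBL1 (p107) and RBL2 (p130), so that E2F factors are freed to switch on genes of DNA replication. The inhibitors CDKN1A (p21) and CDKN1B (p27) block cyclin-CDK complexes, E2F1 is an activator, and E2F7 and E2F8 are atypical E2Fs that repress the same kind of target. Mouse embryonic stem cells are known for a short G1 phase and for microRNAs of the miR-290 and miR-302 clusters that lower several inhibitors of the G1/S step. AGO2 carries microRNAs to their target mRNAs, the T6B peptide binds Argonaute proteins in place of the TNRC6 (GW182) silencing factors, and TRIM71 binds and represses a set of mRNAs directly.

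The microRNA sequences are shown first because they define the letters searched in the 10 mRNAs. The mature sequences are those of RefSeq (GRCm38.p6), written 5′ to 3′, with the seed, bases 2 to 8, in capitals.
mmu-miR-291a-3p: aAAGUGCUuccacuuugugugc
mmu-miR-294-3p: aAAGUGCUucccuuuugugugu
mmu-miR-302d-3p: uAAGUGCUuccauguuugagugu
mmu-miR-17-5p: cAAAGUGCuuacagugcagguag
mmu-miR-20a-5p: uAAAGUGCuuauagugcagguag
mmu-miR-16-5p: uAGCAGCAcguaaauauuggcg
mmu-let-7a-5p: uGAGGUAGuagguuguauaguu
The miR-290 and miR-302 microRNAs share the seed AAGUGCU, and those of the miR-17 family share AAAGUGC, the same letters moved by 1 base. A seed pairs with its reverse complement, so the letters searched on the mRNA strand were AGCACTT for miR-290 and miR-302, GCACTTT for miR-17, CTACCTC for let-7 and TGCTGCT for miR-15 and miR-16. Where AGCACTT is followed by T, it also holds GCACTTT.

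In the longest annotated 3′ UTR (GENCODE M21, GRCm38), AGCACTT was found in 6 of the 10 genes. These windows hold the sites, with the match in capitals and the coordinates of the match given after each.
Cdkn1a, bases 435 to 441 of the 3′ UTR: tcagacctgaatAGCACTTtggaaaaat
Cdkn1a, bases 1107 to 1113: cgtgggtgtcaaAGCACTTagtgggtct
Rbl1, bases 22 to 28: ttgcctgatcaaAGCACTTttggattgt
Rbl2, bases 1384 to 1390: atttttcaataaAGCACTTataaatta
E2f7, from base 288: gcggggttgcctAGCACTTaaccagggt
Ccnd1, bases 924 to 930: attccatttcaaAGCACTTttggtcagc
Ccnd2, bases 988 to 994: ttccattagaaaAGCACTTtgaaaattt
The matches lie at chr17:29099828-29099834 and chr17:29100500-29100506 (plus strand), chr2:157147478-157147484 (minus), chr8:91123830-91123836 (plus), chr10:110785126-110785132 (plus), chr7:144931677-144931683 (minus) and chr6:127129341-127129347 (minus). Over 21022 genes with an annotated 3′ UTR, 14.7% hold AGCACTT at least once. Long 3′ UTRs hold it more often: the share was 13.6% among genes with a 3′ UTR within 20% of the length of that of Cdkn1a, and 48.0% for Ccnd2, whose 3′ UTR has 5173 bases. Since Cdkn1a, Rbl1, Rbl2 and E2f7 were chosen partly as known microRNA targets, their matches are not independent evidence. In the sites of Cdkn1a at 1107, Rbl2 and E2f7 the match is followed by A, which lengthens the usual microRNA site.

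Rb1 and E2f1 have no AGCACTT, but do hold GCACTTT, the miR-17 letters, which 11.8% of genes hold. Their sites are shown because both mRNAs were higher in Ago2KO.
Rb1, bases 844 to 850: tacaacccaagtGCACTTTttaatgttt
E2f1, bases 470 to 476: tgggctctaactGCACTTTtggtgtcct
E2f1, bases 985 to 991: accctccagtctGCACTTTgatttgttt
These lie at chr14:73196361-73196367, chr2:154560212-154560218 and chr2:154559697-154559703, all on the minus strand. Rbl2 also holds GCACTTT apart from its AGCACTT, at bases 705 to 711, followed by A, and at bases 766 to 772. The let-7 letters were found only in E2f7, and TGCTGCT in Cdkn1a, Rbl2, E2f7, Ccnd1 and Ccnd2. Cdkn1b, with a 3′ UTR of 3439 bases, and E2f8, with 618 bases, hold none of the 4 sets of letters.

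**Figure D1:**
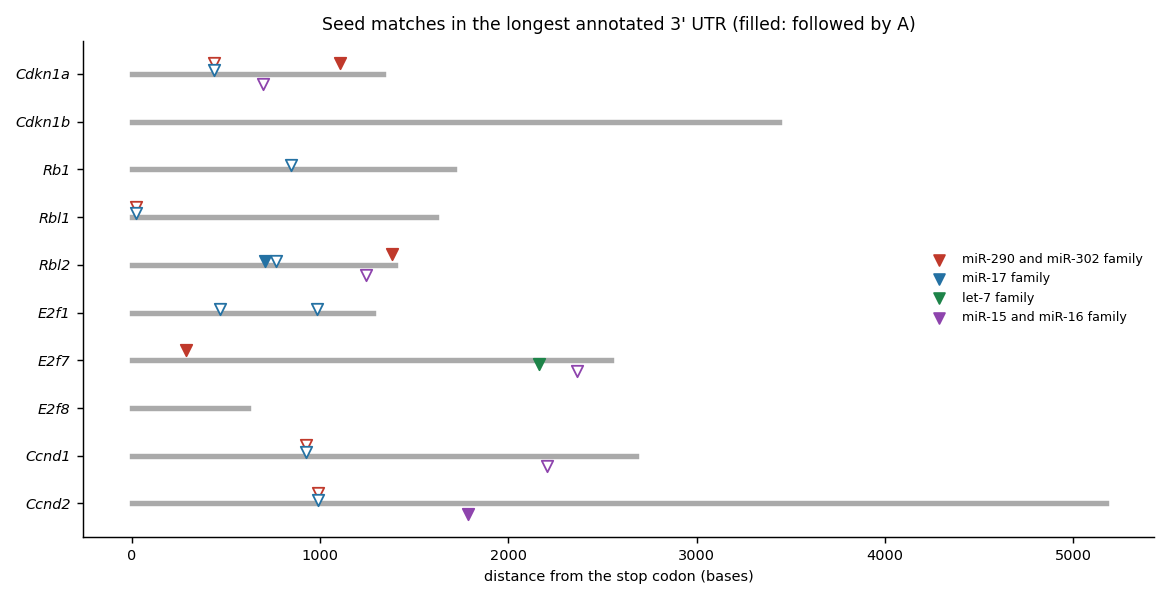
Positions of seed matches in the longest annotated 3′ UTR of each of the 10 genes, as distance from the stop codon in bases (x axis). Grey bars are the 3′ UTRs, triangles the matches by microRNA family (filled where the match is followed by A). Cdkn1b and E2f8 carry no triangle, and the red and blue triangles coincide in Cdkn1a, Rbl1, Ccnd1 and Ccnd2.

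Library totals ran from 29561125 to 50826201 counts in Experiment 1 and from 33910145 to 57872324 counts in Experiment 2, and the 10 genes had between 116 and 14471 counts in a library. Levels are given as CPM, the counts of a gene relative to the library size after TMM scaling. Calls rest on edgeR's quasi-likelihood test with Benjamini-Hochberg adjustment over all genes tested, at a threshold of 0.05. Ago2 mRNA was at 142 ± 9.62 CPM (SD, n = 3) in W and 41.9 ± 1.94 in Ago2KO, but at 87.4, 166.6 and 45.6 CPM in the libraries labelled Ago2KO_empty, against 123 ± 17.6 in T6B_MUT. Replicate 2 of the libraries labelled Ago2KO_empty thus had more Ago2 mRNA than any T6B_MUT library. Calls of the 10 genes and list counts resting on this group are given with and without that replicate. Trim71 mRNA fell by 0.50 (log2) in Trim71KO and by 0.29 in Trim71KO_empty but remained present, so the knockout is taken from the labels.

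The 7 stem cell markers, among them Pou5f1 and Nanog, summed to between 3690 and 4890 CPM in every library. Summed levels of the other marker lists were lower: 4.14 to 37.3 CPM for 6 primitive endoderm markers, 0.728 to 74.3 for 6 markers of 2-cell-like cells, 73.9 to 142 for 4 neural, 9.66 to 16.5 for 4 fibroblast and 4.14 to 15.8 for 3 trophectoderm markers, and no marker measured was at 0 throughout a group. The 2-cell-like sum was 72.8 to 74.3 CPM in T6B_WT and 53.2 to 63.1 in the libraries labelled Ago2KO_empty, against 15.1 to 16.4 in T6B_MUT and 15.7 to 16.8 in Trim71KO_empty. In Experiment 1 it was between 11 and 12.4 CPM in W, 0.728 to 1.22 in Trim71KO and 2.38 to 2.89 in Ago2KO, while the primitive endoderm sum was 35.1 to 37.3 in W, 4.14 to 4.51 in Trim71KO and 8.87 to 9.85 in Ago2KO. These levels move with the groups compared below, and their part in the results was not tested. In bulk RNA, fewer cells with an mRNA and less of it per cell cannot be told apart.

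Compared per length, as deposited RPKM, Ccnd1 was the most abundant of the 10 mRNAs in W, with a mean of 47.5 RPKM. E2f8 (10.8), Cdkn1b (6.31), E2f1 (5.26) and Rbl1 (3.26) followed, each apart from its neighbours in all libraries. E2f7 (1.78), Rb1 (1.73), Ccnd2 (1.71) and Cdkn1a (1.65) could not be ordered, since their libraries overlapped, and Rbl2 was lowest at 0.85. The order was not the same in Trim71KO_empty, where Cdkn1b (12.1 RPKM) and Ccnd1 (10.6 RPKM) overlapped. In T6B_MUT, E2f8 (4.67), E2f1 (4.62) and Rbl1 (4.23) overlapped their neighbours in that order, and Ccnd2, at 0.288 RPKM, was the lowest. Some members had different levels in W and T6B_MUT: mean CPM were 57.8 and 25.7 for E2f8 and 15.9 and 2.74 for Ccnd2, and Ccnd1 ran from 213.7 to 226.9 in W and from 105.3 to 106.8 in T6B_MUT. These pairs of values were not tested, because experiment and plasmid differ together and cannot be told apart.

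**Figure D2:**
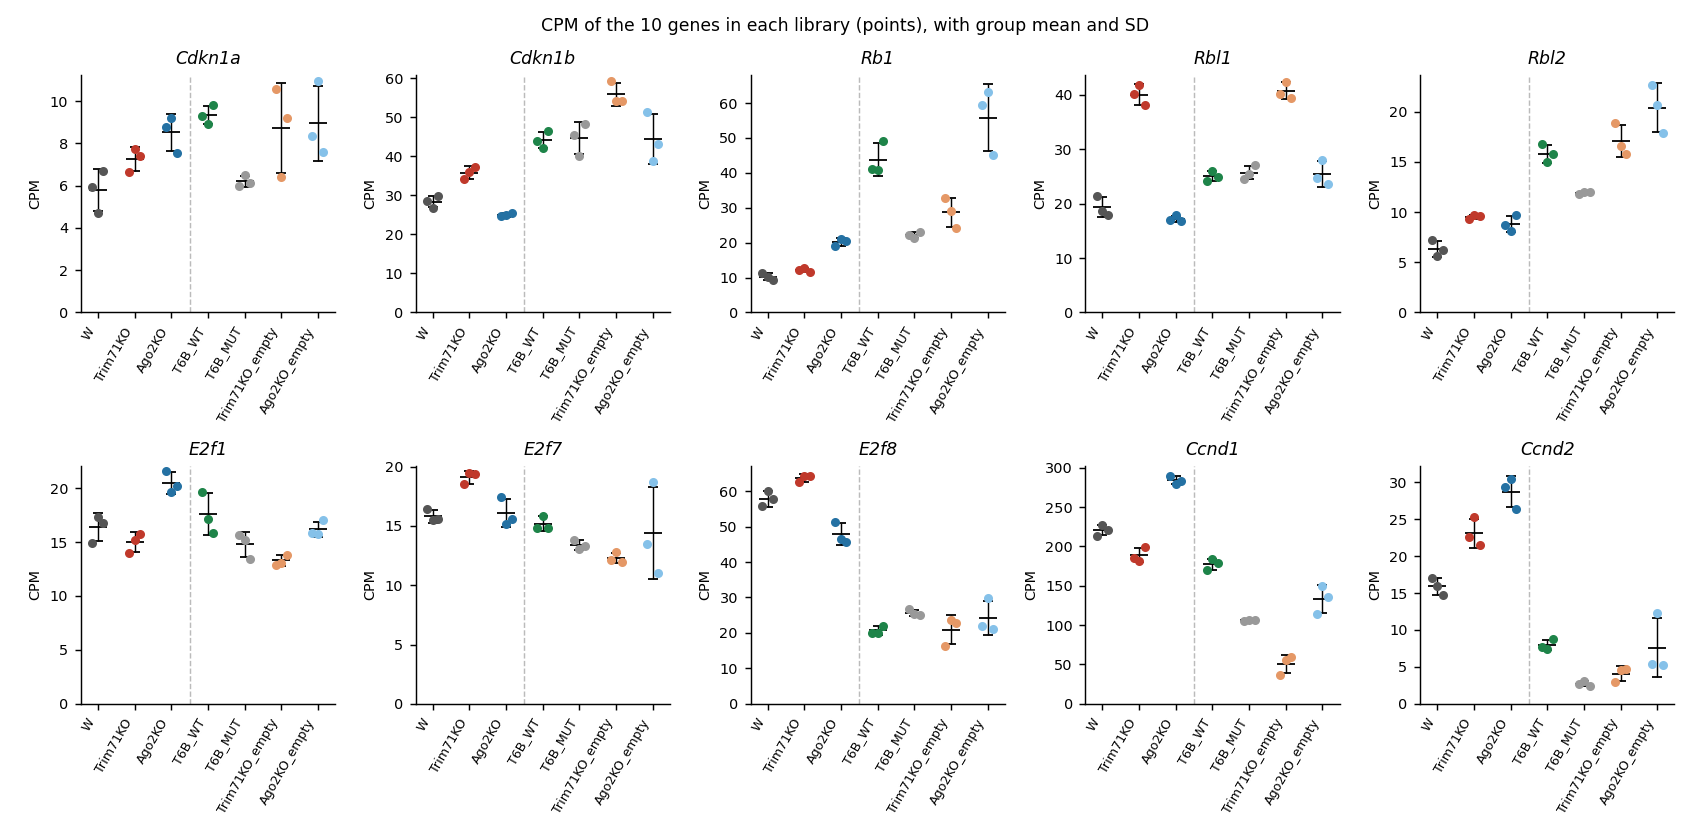
CPM of each of the 10 genes (y axes, linear from 0) in the 7 groups, with Experiment 1 left and Experiment 2 right of the dashed line. Points are libraries, and horizontal bars with whiskers are the group mean and SD (n = 3). Rbl1 stands highest in Trim71KO and Trim71KO_empty, Rb1 in the libraries labelled Ago2KO_empty and in T6B_WT, and Ccnd1 lowest in Trim71KO_empty.

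In Experiment 1, 6 of the 10 mRNAs rose and 1 fell in Trim71KO, and 6 rose and 1 fell in Ago2KO. In Trim71KO, Cdkn1b, Rb1, Rbl1, Rbl2, E2f7 and Ccnd2 were called higher and Ccnd1 lower. Of all 21210 genes tested, 16.9% were called higher and 15.6% lower. In Ago2KO, Cdkn1a, Rb1, Rbl2, E2f1, Ccnd1 and Ccnd2 were called higher and E2f8 lower, beside 10.2% and 7.78% of all genes. The median log2 fold change of the 10 genes was 0.30 in Trim71KO and 0.35 in Ago2KO, where that of all genes was -0.00074 and -0.00292. Both comparisons share the W libraries, so the knockouts were also compared with each other. Trim71KO against Ago2KO had 4 members higher (Cdkn1b, Rbl1, E2f7, E2f8) and 4 lower (Rb1, E2f1, Ccnd1, Ccnd2), beside 17.1% of all genes called higher and 17.1% called lower.

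In Experiment 2, 5 members were called higher in T6B_WT (Cdkn1a, Rb1, Rbl2, Ccnd1, Ccnd2) and none lower, beside 9.29% and 6.69% of 21505 genes. Without T6B_MUT replicate 1 or replicate 3 the count was 3. At an unadjusted p under 0.05, 7 members passed in that comparison. The share of all genes at that threshold was not computed, so this count has no background to stand beside. In Trim71KO_empty, 5 members were called higher (Cdkn1a, Cdkn1b, Rb1, Rbl1, Rbl2) and Ccnd1 lower, beside 14.4% and 13.4% of genes. Without Trim71KO_empty replicate 1, 3 members in all were called. In the libraries labelled Ago2KO_empty, 4 members were called higher (Cdkn1a, Rb1, Rbl2, Ccnd2) and none lower, beside 16.4% and 12.4% of genes, and 3 were called without replicate 2. The 3 comparisons share the T6B_MUT libraries. Trim71KO_empty against the libraries labelled Ago2KO_empty had 2 members higher (Cdkn1b, Rbl1) and 4 lower (Rb1, Rbl2, E2f1, Ccnd1), beside 14.7% and 16.9% of genes, and 5 in all were called without replicate 2.

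**Figure D3:**
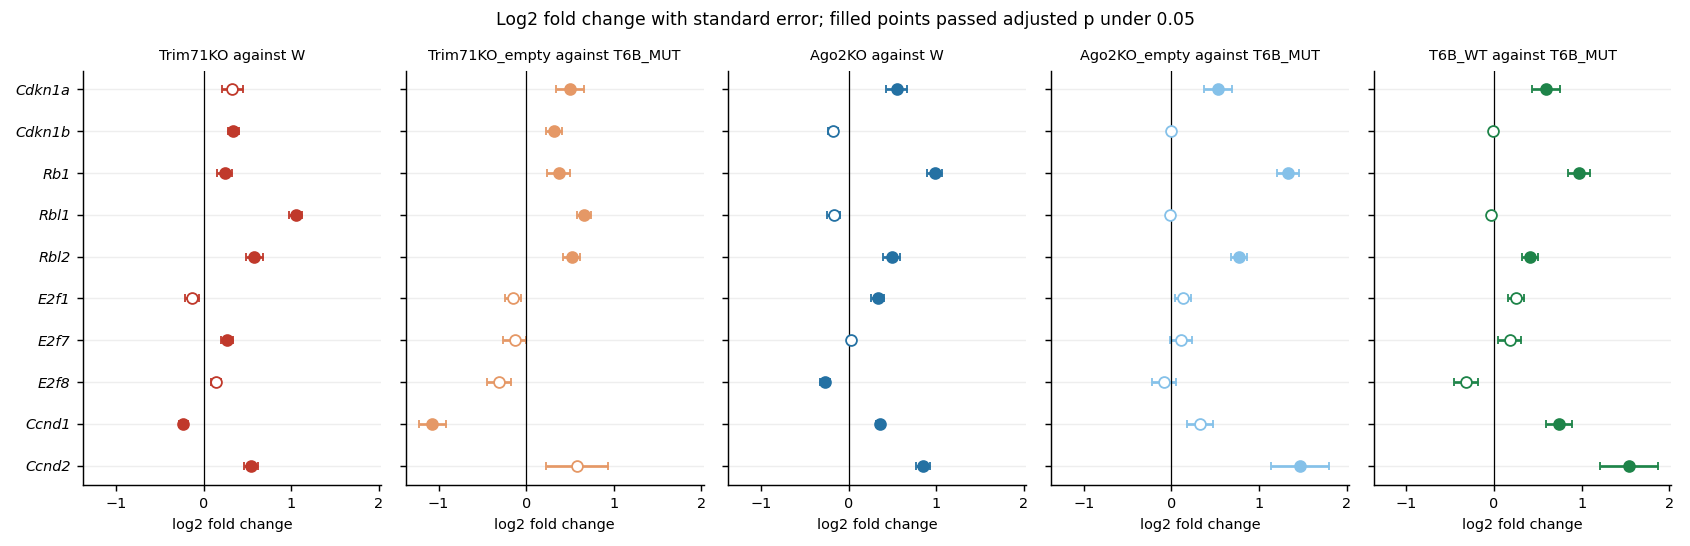
Log2 fold change of the 10 genes (x axis) against the control of each experiment, with bars of 1 standard error (none is drawn for changes under 0.05). Filled points passed an adjusted p under 0.05. Rbl1 and Cdkn1b are filled in the Trim71 panels only, Rb1 is filled in all 5, and Ccnd1 lies left of 0 in both Trim71 panels and right of 0 in the other panels.

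Cdkn1a (ENSMUSG00000023067, chromosome 17, 29090976 to 29100727, plus strand) encodes the CDK inhibitor p21. Its mRNA was at 5.95, 4.70 and 6.68 CPM in W, at 6.63, 7.76 and 7.39 in Trim71KO, and at 8.78, 9.21 and 7.56 in Ago2KO. All Ago2KO libraries lay above all W libraries, while the lowest Trim71KO library lay below the highest of W. Cdkn1a rose by 0.55 (log2, SE 0.12) in Ago2KO, an adjusted p of 0.00563, and its value in Trim71KO was 0.33 (SE 0.12, adjusted p 0.0577; 0.44 without W replicate 3, adjusted p 0.0234). Cdkn1a in Experiment 2 was at 6.01, 6.50 and 6.12 CPM in T6B_MUT, at 9.29, 8.94 and 9.80 in T6B_WT, at 10.6, 6.395 and 9.21 in Trim71KO_empty and at 8.34, 10.95 and 7.58 in the libraries labelled Ago2KO_empty. The T6B_WT libraries were close together and above every T6B_MUT library, and Trim71KO_empty replicate 2 lay inside the T6B_MUT range. It rose by 0.59 in T6B_WT (SE 0.16, adjusted p 0.0163), by 0.50 in Trim71KO_empty (0.0269) and by 0.53 in the libraries labelled Ago2KO_empty (0.0197). Without replicate 2, the last value was 0.34 and Cdkn1a was not called (0.0962). Each of these 3 calls was also lost without T6B_MUT replicate 1 or replicate 3, that of T6B_WT without its replicate 3 (adjusted p 0.0615), and that of Trim71KO_empty without its replicate 1 (0.159) or 3 (0.0777). It did not pass the test between knockouts, at -0.23 in Experiment 1 (adjusted p 0.177).

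Cdkn1b (ENSMUSG00000003031, chromosome 6, 134920401 to 134925513, plus strand) encodes the related inhibitor p27, and no annotated gene overlaps it. It was at 28.5, 26.8 and 29.8 CPM in W, at 34.1, 36.1 and 37.3 in Trim71KO, and at 24.65, 24.96 and 25.47 in Ago2KO. The 3 groups did not overlap, with Trim71KO highest and Ago2KO lowest. Cdkn1b rose by 0.34 in Trim71KO (SE 0.059, adjusted p 4.95e-04), its value in Ago2KO was -0.18 (adjusted p 0.0514, and 0.0494 without W replicate 2), and the knockouts differed by 0.52 (SE 0.06, adjusted p 1.02e-05). Cdkn1b in Experiment 2 was at 45.6, 40.2 and 48.3 CPM in T6B_MUT, at 44.1, 42.2 and 46.4 in T6B_WT, at 59.2, 54.1 and 54.2 in Trim71KO_empty and at 51.4, 38.9 and 43.1 in the libraries labelled Ago2KO_empty. The Trim71KO_empty libraries lay above every other library of the experiment, and the other 3 groups overlapped. The rise in Trim71KO_empty was 0.32 (SE 0.09, adjusted p 0.0123), a 1.25-fold difference, and 4 of the 6 fits with 1 library left out kept the call. It was lost without T6B_MUT replicate 2 or Trim71KO_empty replicate 1. Among the 10 genes, Cdkn1b differed from Cdkn1a in that it was called in neither T6B_WT nor Ago2KO; the difference between the genes was not tested.

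Rb1 (ENSMUSG00000022105, chromosome 14, 73183673 to 73325822, minus strand) encodes the retinoblastoma protein. It was at 11.3, 10.2 and 9.19 CPM in W, at 12.1, 12.8 and 11.5 in Trim71KO, and at 18.9, 21.1 and 20.6 in Ago2KO. Every Ago2KO library lay well above the other groups, whereas Trim71KO lay just above W. Rb1 rose 1.97-fold in Ago2KO (log2 0.98, SE 0.085, adjusted p 2.62e-06). In Trim71KO the rise was 0.24 (SE 0.087, adjusted p 0.0477), and the call was kept in 2 of 6 fits with 1 library left out (those without W replicate 1 or Trim71KO replicate 3) and lost by DESeq2 (adjusted p 0.059). Rb1 in Experiment 2 was at 22.3, 21.3 and 23.1 CPM in T6B_MUT, at 41.2, 40.9 and 49.1 in T6B_WT, at 32.7, 29.2 and 24.3 in Trim71KO_empty, and at 59.4, 63.1 and 45.0 in the libraries labelled Ago2KO_empty. T6B_WT and the libraries labelled Ago2KO_empty were both far above T6B_MUT, and Trim71KO_empty lay between. Rb1 rose 1.96-fold in T6B_WT (log2 0.97, SE 0.13, adjusted p 1.94e-04) and 2.51-fold in the libraries labelled Ago2KO_empty (1.33, SE 0.13, adjusted p 9.98e-06; 1.21 without replicate 2, adjusted p 7.73e-06). Its value in Trim71KO_empty was 0.37 (adjusted p 0.0497), a call kept in 1 of 6 fits with 1 library left out, the fit without Trim71KO_empty replicate 3. Rb1 was lower in the Trim71 than in the Ago2 knockout, by a log2 of -0.74 in Experiment 1 (adjusted p 9.67e-06) and -0.96 in Experiment 2 (7.49e-05; -0.85 without replicate 2). Rcbtb2 and Lpar6 lie on the other strand within the Rb1 locus and Gm17233 and Mir687 on the same strand.

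Rbl1 (ENSMUSG00000027641, chromosome 2, 157145893 to 157204534, minus strand) encodes the pocket protein p107. It was at 21.4, 18.6 and 17.9 CPM in W, at 40.1, 41.9 and 38.0 in Trim71KO, and at 17.0, 17.9 and 16.7 in Ago2KO. Trim71KO stood apart at 2.07 times the level of W, and the Ago2KO libraries lay just below those of W. Rbl1 rose by 1.05 in Trim71KO (SE 0.071, adjusted p 6.12e-08) and had -0.17 in Ago2KO (SE 0.074, adjusted p 0.138). The direct difference between the knockouts was 1.22 (SE 0.073, adjusted p 1.32e-08), or 2.33-fold. Rbl1 in Experiment 2 was at 24.6, 25.5 and 27.0 CPM in T6B_MUT, at 24.2, 26.0 and 24.9 in T6B_WT, at 40.2, 42.4 and 39.4 in Trim71KO_empty and at 24.7, 28.1 and 23.6 in the libraries labelled Ago2KO_empty. Only the Trim71KO_empty libraries stood apart; those of T6B_WT, T6B_MUT and the group labelled Ago2KO_empty overlapped. Rbl1 rose by 0.66 in Trim71KO_empty (SE 0.075, adjusted p 2.73e-06), with values of -0.0384 in T6B_WT (adjusted p 0.793) and -0.0154 in the libraries labelled Ago2KO_empty (0.899), or -0.11 without replicate 2. The 2 knockouts of Experiment 2 differed by 0.68 (SE 0.075, adjusted p 1.49e-06; 0.76 without replicate 2). The rises in Trim71KO and Trim71KO_empty and the differences between knockouts passed in every fit with 1 library left out.

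Rbl2 (ENSMUSG00000031666, chromosome 8, 91070057 to 91123844, plus strand) encodes p130, the pocket protein typical of resting cells. It was at 7.17, 5.60 and 6.26 CPM in W, at 9.26, 9.67 and 9.57 in Trim71KO, and at 8.67, 8.16 and 9.71 in Ago2KO. Both knockouts lay above all W libraries and overlapped each other. Rbl2 rose by 0.58 in Trim71KO (SE 0.10, adjusted p 4.40e-04) and by 0.49 in Ago2KO (SE 0.10, adjusted p 0.00363), and the knockouts did not differ by the test (0.097, SE 0.099, adjusted p 0.496). In Trim71KO the median of the 1060 tested genes on chromosome 8 was 0.19, and the value of Rbl2 minus that median was 0.39. Between the knockouts that median was also 0.19, and the value of Rbl2 minus it was -0.0917, so its direction turned. Rbl2 in Experiment 2 was at 11.80, 12.01 and 11.99 CPM in T6B_MUT, at 16.75, 14.96 and 15.73 in T6B_WT, at 18.9, 16.5 and 15.8 in Trim71KO_empty and at 22.7, 20.6 and 17.8 in the libraries labelled Ago2KO_empty. All 9 of these libraries lay above T6B_MUT. Rbl2 rose by 0.41 in T6B_WT (SE 0.094, adjusted p 0.00569), by 0.52 in Trim71KO_empty (SE 0.094, adjusted p 4.28e-04; 0.43 minus the chromosome median of 0.0872), and by 0.77 in the libraries labelled Ago2KO_empty (SE 0.094, adjusted p 9.84e-06; 0.75 without replicate 2). Rbl2 was thus called in each of the 5 comparisons with a control, and those 5 calls passed in every fit with 1 library left out. The difference of -0.26 between the knockouts of Experiment 2 (adjusted p 0.0431) was not called without replicate 2 (-0.24, adjusted p 0.0899), and was kept in 2 of 6 fits with 1 library left out.

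The makeup of the pocket protein mRNAs was compared as shares of their summed RPKM. Rbl1 held 55.9% ± 0.134 (SD, n = 3) of the sum in W, 67.1% ± 0.384 in Trim71KO and 38.8% ± 1.37 in Ago2KO. Rb1 held 29.6% ± 1.07 in W, 20.3% ± 0.189 in Trim71KO and 45.3% ± 1.13 in Ago2KO. The main pocket protein mRNA was thus Rbl1 in W and Trim71KO and Rb1 in Ago2KO, and no libraries of the 3 groups overlapped in either share. In Experiment 2, Rb1 held 38.7% ± 0.929 in T6B_MUT, 34.4% ± 2.66 in Trim71KO_empty, 53.6% ± 2.72 in T6B_WT and 57.0% ± 2.37 in the libraries labelled Ago2KO_empty (58.2, 58.6 and 54.3%). Rbl1 held 44.8% ± 0.917 in T6B_MUT, 30.9% ± 2.14 in T6B_WT and 49.2% ± 3.07 in Trim71KO_empty, without overlap. The Rbl2 share stayed between 12.3% and 17.6% in all 21 libraries. For every Rb1 and Rbl1 comparison of 3 against 3 libraries the two-sided exact permutation p was 0.10, the smallest that this size allows, so these share differences cannot pass 0.05; 28 such comparisons were made.

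**Figure D4:**
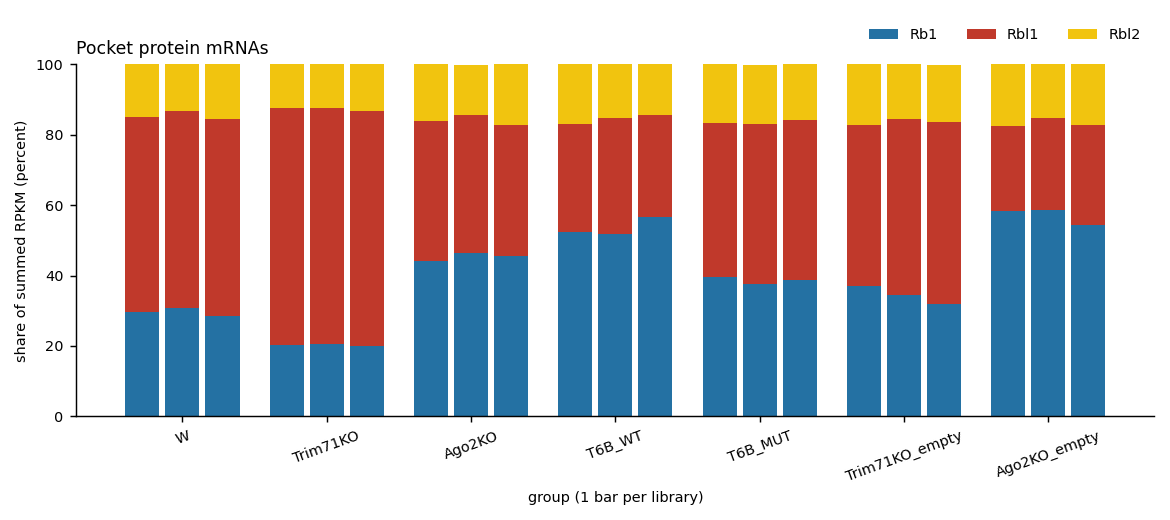
Shares of Rb1, Rbl1 and Rbl2 in their summed RPKM (y axis, percent), with 1 stacked bar for each of the 21 libraries. The Rb1 share is above 50% in all T6B_WT libraries and in all libraries labelled Ago2KO_empty, and near 20% in Trim71KO.

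E2f1 (ENSMUSG00000027490, chromosome 2, 154559407 to 154569892, minus strand), the activator, was at 14.9, 17.4 and 16.8 CPM in W, at 13.96, 15.2 and 15.8 in Trim71KO, and at 21.6, 19.7 and 20.2 in Ago2KO. Ago2KO lay above the other groups, which overlapped. E2f1 rose by 0.33 in Ago2KO (SE 0.076, adjusted p 0.0076), had -0.13 in Trim71KO (adjusted p 0.237), and was lower in Trim71KO than in Ago2KO by a log2 of -0.45 (adjusted p 3.31e-04). E2f1 in Experiment 2 was at 15.7, 15.2 and 13.5 CPM in T6B_MUT, at 19.7, 17.2 and 15.9 in T6B_WT, at 12.9, 13.1 and 13.8 in Trim71KO_empty and at 15.9, 15.7 and 17.0 in the libraries labelled Ago2KO_empty. T6B_WT lay just above T6B_MUT, a difference of 0.25 that did not pass (SE 0.089, adjusted p 0.0641), except without T6B_WT replicate 3 (adjusted p 0.0484). Its values were -0.15 in Trim71KO_empty (adjusted p 0.225) and 0.13 in the libraries labelled Ago2KO_empty (0.275), or 0.14 without replicate 2 (0.348). The knockouts of Experiment 2 differed by -0.29 (adjusted p 0.0213; -0.30 without replicate 2), a call kept in 2 of 6 fits with 1 library left out, those without Trim71KO_empty replicate 3 or replicate 2 of the libraries labelled Ago2KO_empty.

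E2f7 (ENSMUSG00000020185, chromosome 10, 110745439 to 110787384, plus strand), an atypical E2F, was at 16.4, 15.5 and 15.6 CPM in W, at 18.5, 19.4 and 19.4 in Trim71KO, and at 17.4, 15.2 and 15.6 in Ago2KO. Trim71KO lay above both other groups. E2f7 rose by 0.27 in Trim71KO (SE 0.07, adjusted p 0.00764), a 1.21-fold difference, and had 0.0219 in Ago2KO (adjusted p 0.874). The knockouts differed by 0.25 (SE 0.07, adjusted p 0.0121), which was lost without Ago2KO replicate 3 (adjusted p 0.05). E2f7 in Experiment 2 was at 13.8, 13.1 and 13.3 CPM in T6B_MUT, at 14.8, 15.9 and 14.8 in T6B_WT, at 12.1, 12.8 and 11.9 in Trim71KO_empty, and at 13.5, 18.7 and 11.1 in the libraries labelled Ago2KO_empty. Trim71KO_empty lay below and T6B_WT above T6B_MUT, and among the libraries labelled Ago2KO_empty replicate 2 stood high. None of these passed, at 0.18 in T6B_WT (adjusted p 0.407), -0.13 in Trim71KO_empty (0.52) and 0.11 in the libraries labelled Ago2KO_empty (0.579), or -0.14 without replicate 2. The knockouts of Experiment 2 had a difference of -0.23 (adjusted p 0.204), which was 0.00691 without replicate 2 and -0.37 without replicate 3 of the libraries labelled Ago2KO_empty (adjusted p 0.0105). The rise of this known TRIM71 target in Trim71KO was thus not called in Trim71KO_empty, and the difference between the experiments, -0.40 (SE 0.15), did not pass either (adjusted p 0.107).

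E2f8 (ENSMUSG00000046179, chromosome 7, 48866429 to 48881596, minus strand), the other atypical E2F, was at 55.7, 60.2 and 57.7 CPM in W, at 62.5, 64.3 and 64.3 in Trim71KO, and at 51.4, 46.6 and 45.7 in Ago2KO. The 3 groups did not overlap. E2f8 fell by 0.27 on the log2 scale in Ago2KO (SE 0.055, adjusted p 0.00307), had 0.14 in Trim71KO (adjusted p 0.0672), and differed between the knockouts by 0.41 (SE 0.056, adjusted p 4.18e-05). Minus the median of chromosome 7, which was -0.0711, the value of E2f8 in Trim71KO was 0.21. E2f8 in Experiment 2 was at 26.8, 25.3 and 25.2 CPM in T6B_MUT, at 20.05, 19.97 and 22.02 in T6B_WT, at 16.2, 23.7 and 22.7 in Trim71KO_empty and at 21.9, 29.9 and 21.1 in the libraries labelled Ago2KO_empty. T6B_WT and Trim71KO_empty lay below every T6B_MUT library. Neither was called: -0.32 in T6B_WT (SE 0.14, adjusted p 0.158) and -0.31 in Trim71KO_empty (SE 0.14, adjusted p 0.13). With only T6B_WT and T6B_MUT in the fit, E2f8 in T6B_WT had an adjusted p of 7.31e-04. In the libraries labelled Ago2KO_empty it had -0.0851 (adjusted p 0.685), or -0.28 without replicate 2 (0.088).

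Ccnd1 (ENSMUSG00000070348, chromosome 7, 144929931 to 144939925, minus strand) encodes cyclin D1. It was at 213.7, 226.9 and 221.1 CPM in W, at 185.1, 181.6 and 198.9 in Trim71KO, and at 289.7, 279.2 and 282.7 in Ago2KO. The 3 groups did not overlap, with Trim71KO lowest and Ago2KO highest. Ccnd1 fell by 0.23 in Trim71KO (SE 0.047, adjusted p 0.00194) and rose by 0.36 in Ago2KO (SE 0.047, adjusted p 9.79e-05), and the direct difference between them was -0.59 (SE 0.048, adjusted p 3.00e-07). The median of chromosome 7 in Trim71KO was -0.0711, and the value of Ccnd1 minus that median was -0.16. Ccnd1 in Experiment 2 was at 105.3, 106.8 and 106.1 CPM in T6B_MUT, at 169.6, 183.4 and 178.6 in T6B_WT, at 37.2, 55.2 and 59.8 in Trim71KO_empty and at 114.1, 149.8 and 135.4 in the libraries labelled Ago2KO_empty. No Trim71KO_empty library reached the T6B_MUT level, and every T6B_WT library exceeded it. Ccnd1 rose 1.67-fold in T6B_WT (log2 0.74, SE 0.15, adjusted p 0.00718) and fell to 0.478 times T6B_MUT in Trim71KO_empty (log2 -1.07, SE 0.15, adjusted p 4.63e-04). The libraries labelled Ago2KO_empty had 0.33 (SE 0.15), which did not pass (adjusted p 0.127; 0.22 without replicate 2, adjusted p 0.403). Trim71KO_empty lay below them by a log2 of -1.39 (SE 0.15, adjusted p 5.38e-05; -1.29 without replicate 2).

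Ccnd2 (ENSMUSG00000000184, chromosome 6, 127125162 to 127152193, minus strand) encodes cyclin D2. It was at 17.08, 15.96 and 14.70 CPM in W, at 22.6, 25.3 and 21.5 in Trim71KO, and at 29.4, 30.4 and 26.3 in Ago2KO. All groups were apart, in the order W, Trim71KO, Ago2KO. Ccnd2 rose by 0.54 in Trim71KO (SE 0.082, adjusted p 1.44e-04) and by 0.85 in Ago2KO (SE 0.081, adjusted p 5.86e-06), and was lower in Trim71KO than in Ago2KO by a log2 of -0.31 (adjusted p 0.00701). Ccnd2 in Experiment 2 was at 2.71, 3.05 and 2.48 CPM in T6B_MUT, at 7.69, 7.42 and 8.71 in T6B_WT, at 2.98, 4.56 and 4.77 in Trim71KO_empty and at 5.42, 12.2 and 5.20 in the libraries labelled Ago2KO_empty. T6B_WT was far above T6B_MUT, and replicate 2 of the libraries labelled Ago2KO_empty stood well above the other two. The rise in T6B_WT was 2.90-fold (log2 1.54, SE 0.33, adjusted p 0.0128), and the call was lost without T6B_MUT replicate 1 (adjusted p 0.0514) or replicate 3 (0.0536). In the libraries labelled Ago2KO_empty it rose by 1.47 (SE 0.33, adjusted p 0.0104), and by 0.94 without replicate 2 (SE 0.16, adjusted p 3.08e-04). Trim71KO_empty had 0.58 (SE 0.35, adjusted p 0.259). The knockouts of Experiment 2 had a difference of -0.89 (SE 0.33, adjusted p 0.0684), which among the libraries labelled Ago2KO_empty was -0.37 without replicate 2 and passed without replicate 1 (-1.07, adjusted p 0.0367) or 3 (-1.08, adjusted p 0.0278).

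Of the summed RPKM of Ccnd1 and Ccnd2, Ccnd1 held nearly all in every group. Ccnd3 was not part of this sum. The Ccnd2 share was 3.49% ± 0.323 (SD, n = 3) in W, 5.80% ± 0.691 in Trim71KO and 4.82% ± 0.355 in Ago2KO. It was 1.28% ± 0.126 in T6B_MUT, 2.20% ± 0.2 in T6B_WT, 3.89% ± 0.0653 in Trim71KO_empty and 2.71% ± 1.08 in the libraries labelled Ago2KO_empty, where replicates 1 to 3 had 2.32%, 3.93% and 1.88%. None of the 5 groups overlapped its control in this share, and each exact permutation p was 0.10, again the smallest possible.

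The effect of Trim71 loss was then compared between the experiments by testing the difference of the fold changes over all 21 libraries. Ccnd1 and Rbl1 were the members called, beside 10.1% of 22258 genes, and both were lower in Experiment 2. For Ccnd1 the difference was -0.84 (SE 0.16, adjusted p 0.00249), and it passed in 12 of 12 fits with 1 library left out. For Rbl1 it was -0.39 (SE 0.10, adjusted p 0.0138), lost without W replicate 3 or T6B_MUT replicate 3, after which 1 member was called. E2f8 had -0.44 (SE 0.16, adjusted p 0.0775), and -0.52 without Trim71KO_empty replicate 2 (adjusted p 0.046). Since the control of Experiment 2 carried the T6B_MUT plasmid and the knockout an empty one, plasmid, experiment and genotype cannot be told apart in these differences.

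For Ago2 loss no member differed between the experiments, beside 2.13% of genes, and 1 member had an unadjusted p under 0.05; DESeq2 also called none. That member was Rb1, with 0.34 (SE 0.16, adjusted p 0.305). Leaving out Ago2KO_empty replicate 2, as labelled, gave 0.25 (adjusted p 0.53), and leaving out replicate 3 gave 0.46 (adjusted p 0.0353). Likewise, no member differed between the effect of the T6B peptide and that of Ago2 loss in Experiment 1, beside 3.16% of genes, with 1 at an unadjusted p under 0.05 and none by DESeq2. Ccnd1 had 0.38 (SE 0.16, adjusted p 0.301) and Ccnd2 had 0.69 (SE 0.34, adjusted p 0.407). These tests do not show that the effects are alike. The share of all genes at an unadjusted p under 0.05 was not computed for either difference.

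The seed matches shown above were set beside the calls as a description. Of the 10 genes, 8 hold AGCACTT or GCACTTT, as do 4195 of the 21022 genes with an annotated 3′ UTR, and some of the 10 were chosen as known targets. The 6 genes called higher in Ago2KO hold one or the other, and so do 5 of the 6 called higher in Trim71KO. Cdkn1b and E2f8 have neither. Rbl1 and E2f7 hold AGCACTT and were not called in Ago2KO, in T6B_WT or in the libraries labelled Ago2KO_empty. Rbl1 instead rose with loss of Trim71, as did Cdkn1b, which holds none of the letters. Over all tested genes with an annotated 3′ UTR, the median log2 fold change in Ago2KO was 0.0741 for 2413 genes with AGCACTT and -0.000922 for 11915 without. For GCACTTT it was 0.0991 with and -0.00141 without. In T6B_WT the medians were 0.0766 with AGCACTT and 0.00373 without, and 0.11 with GCACTTT and 0.0021 without. In Trim71KO they were 0.0305 and -0.0081 for AGCACTT, and 0.0425 and -0.00854 for GCACTTT. In Trim71KO_empty they were 0.048 and 0.00308 for AGCACTT, and 0.0688 and 0.00146 for GCACTTT. In the libraries labelled Ago2KO_empty, with replicate 2 kept, they were 0.16 and 0.0221, and 0.18 and 0.0241. For TGCTGCT, the letters of miR-15 and miR-16, the medians with and without were 0.0371 and 0.0026 in Ago2KO, 0.0388 and 0.00841 in T6B_WT, and 0.0388 and -0.0171 in Trim71KO. For CTACCTC, the letters of let-7, they were 0.0329 and 0.00859 in Ago2KO, 0.0394 and 0.0132 in T6B_WT, and 0.0264 and -0.00535 in Trim71KO. Genes with and without the letters were not matched for 3′ UTR length, and the differences between these medians were not tested.

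Promoters were searched for the E2F letters TTTNNCGC and the CHR letters TTTGAA, the element bound by the MuvB complex, on both strands, from 250 bases before to 50 after the start site. RefSeq promoters (GRCm38.p6) were matched for Cdkn1a, Cdkn1b, E2f1, E2f7, E2f8, Rbl1 and Rbl2. Only Rbl1 and E2f7 among these hold the E2F letters. Both were higher in Trim71KO than in Ago2KO, but so were Cdkn1b and E2f8, whose promoters hold none. All windows with E2F letters are shown, with the match in capitals.
Rbl1, first base 18 before the start site: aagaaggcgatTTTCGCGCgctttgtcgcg
Rbl1, first base 8 before the start site: ttttcgcgcgcTTTGTCGCggggggttgtg
E2f7, on the other strand: cccgcgtccccGCGGGAAAcgctcccgcgt
These matches lie at chr2:157204545-157204552 and chr2:157204535-157204542, on the minus strand of Rbl1, and at chr10:110745241-110745248. The 2 windows of Rbl1 overlap, but their matches do not. Of 32851 RefSeq promoters, 5.17% hold TTTNNCGC and 17.9% hold TTTGAA. The CHR letters were found once each in the promoters of E2f8 and Rbl2. The absence of these letters elsewhere says nothing about the factors.

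Other cell cycle genes were described by 7 lists of genes, by counts of calls and medians. Their counts stand beside the shares of all genes called higher and lower, which were 16.9% and 15.6% in Trim71KO, 10.2% and 7.78% in Ago2KO, and 9.29% and 6.69% in T6B_WT. The shares were 14.4% and 13.4% in Trim71KO_empty and 16.4% and 12.4% in the libraries labelled Ago2KO_empty. Among 7 other E2F and DP genes, 4 were higher in Trim71KO and none lower, with a median of 0.27. In Ago2KO, 2 were higher and 3 lower (median -0.15). In Trim71KO_empty 1 was higher, E2f6 (0.36, SE 0.0685, adjusted p 6.27e-04), and 1 lower, Tfdp1 (-0.37, SE 0.0676, adjusted p 3.86e-04), with a median of 0.0915. E2f2 and E2f3, activators like E2f1, rose in Trim71KO by 0.71 (SE 0.064, adjusted p 1.20e-06) and 0.44 (SE 0.049, adjusted p 9.71e-06). Neither was called in Trim71KO_empty, where E2f2 was at 17.4 ± 2.16 CPM against 14.7 ± 0.345 in T6B_MUT. In Ago2KO E2f2 and E2f3 fell, with log2 values of -0.53 (SE 0.067, adjusted p 8.21e-05) and -0.42 (SE 0.05, adjusted p 4.35e-05). In direct comparison E2f2 was 1.24 higher in Trim71KO than in Ago2KO (adjusted p 4.83e-09), the reverse of the order of E2f1. In T6B_WT, 2 of the 7 were higher and 4 lower (2 lower without T6B_MUT replicate 1; median -0.25), among them E2f2 (-0.81, SE 0.10, adjusted p 2.66e-05), and the counts in the libraries labelled Ago2KO_empty were also 2 and 4, with and without replicate 2.

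Of the 7 MuvB genes and partners, which act with Rbl1, Rbl2 and E2F4, 3 were higher in Trim71KO and 4 lower in Ago2KO. With 1 library left out, each of these counts was 2 to 3. None was called in the other direction, and the medians were 0.13 and -0.20. Of all genes, 16.9% were called higher in Trim71KO and 7.78% lower in Ago2KO. In T6B_WT 3 were lower (2 to 3 with 1 library left out; median -0.13), and in Trim71KO_empty 2 were higher (1 to 3; median 0.16). Mybl2, the partner that activates G2/M genes, was at 618 ± 45.3 CPM in W, 760 ± 45.7 in Trim71KO and 537 ± 32.9 in Ago2KO. Between the knockouts it differed by 0.50 (SE 0.062, adjusted p 1.97e-05). It fell by 0.43 in T6B_WT (SE 0.064, adjusted p 1.29e-04) and rose by 0.51 in Trim71KO_empty (SE 0.064, adjusted p 8.66e-06).

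Of 10 cyclin and CDK genes of the G1/S step, 3 were higher and 5 lower in Trim71KO (2 to 3 and 3 to 4 with 1 library left out). In Trim71KO_empty 7 were lower, with none higher. The medians were -0.0465 and -0.38, and 15.6% and 13.4% of all genes were called lower. Ccne1, the cyclin E that drives entry into S phase, fell from 195 ± 4.9 CPM in W to 99.9 ± 0.955 in Trim71KO (log2 -0.96, SE 0.043, adjusted p 1.26e-09). In Trim71KO_empty it was at 46.1 ± 9.25 CPM against 126 ± 1.84 in T6B_MUT (-1.45, SE 0.13, adjusted p 4.90e-06). Ccne1 was also lower in the libraries labelled Ago2KO_empty, at 86.8 ± 11.4 CPM (-0.54, SE 0.13, adjusted p 0.00774, with replicate 2 kept). Ccne2 rose in Trim71KO by 0.56 (SE 0.091, adjusted p 3.09e-04). In Ago2KO 2 of the 10 were lower (1 without Ago2KO replicate 2; median -0.0467). In T6B_WT 1 was lower (median -0.0571), a call lost in every fit with 1 library left out. In the libraries labelled Ago2KO_empty 7 were lower, 6 without replicate 2 and 2 without replicate 1. Of 5 other CDK inhibitors, 1 was higher and 1 lower in Trim71KO (0 to 1 and 1 to 2 with 1 library left out; median -0.0999), 1 lower in Ago2KO (median -0.12), 1 higher in T6B_WT (median 0.30) and 1 lower in Trim71KO_empty (median 0.45). None was called in the libraries labelled Ago2KO_empty. Cdkn1c, which encodes p57, fell by 1.06 in Trim71KO (SE 0.16, adjusted p 7.86e-04) and by 0.72 in Ago2KO (SE 0.15, adjusted p 0.011), and rose by 0.65 in T6B_WT (SE 0.13, adjusted p 0.00244). It fell by 0.91 in Trim71KO_empty (SE 0.14, adjusted p 1.25e-04). Cdkn2a, which encodes p16 and p19Arf, was the CDK inhibitor called higher in Trim71KO (0.63, SE 0.18, adjusted p 0.0129). Its level was low, at 1.72 ± 0.315 CPM in Trim71KO and 1.12 ± 0.0601 in W. This call was not kept in every fit with 1 library left out.

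Of the 17 replication genes known as E2F targets, 4 were higher and 3 lower in Trim71KO (median -0.0479), beside 16.9% and 15.6% of all genes. In Ago2KO 1 was lower (0 to 1 with 1 library left out, median 0.00141), beside 7.78% of all genes. In Trim71KO_empty 12 of the 17 were lower, beside 13.4% of all genes, and none higher, with a median of -0.30 against 0.0025 for all genes; with 1 library left out the count was 9 to 12. Rrm2, a subunit of ribonucleotide reductase, fell there by 0.53 (SE 0.087, adjusted p 1.62e-04), although it rose by 0.20 in Trim71KO (SE 0.045, adjusted p 0.00286). In the test of the difference between experiments, 6 of the 17 were lower in Experiment 2, and 2 to 5 with 1 library left out. Of all genes, 10.1% were called in that test in either direction. In T6B_WT 1 was lower, Tk1 (-0.42, SE 0.11, adjusted p 0.0171), and in the libraries labelled Ago2KO_empty 3 were, or 2 without replicate 2 and 7 without replicate 3. Of 12 G2/M genes, 4 were lower in each Experiment 1 knockout, beside 15.6% of all genes in Trim71KO and 7.78% in Ago2KO, and 2 were higher in Trim71KO. In Trim71KO_empty 5 were lower (3 without replicate 1), beside 13.4% of all genes. The medians were -0.0684 in Trim71KO, -0.11 in Ago2KO and -0.19 in Trim71KO_empty.

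Among 10 genes of the p53 response, to which Cdkn1a belongs, 3 were higher in Ago2KO (median 0.17) and 3 lower in Trim71KO (1 without Trim71KO replicate 1; median -0.0992), beside 10.2% and 15.6% of all genes. In Trim71KO_empty 5 were higher (median 0.25), beside 14.4% of all genes. The count was 4 in the libraries labelled Ago2KO_empty (also without replicate 2), beside 16.4%, and 1 in T6B_WT (median 0.18), beside 9.29%. Ccng1, a p53 target, rose by 0.76 in Ago2KO (SE 0.053, adjusted p 2.78e-07) and by 0.61 in T6B_WT (SE 0.096, adjusted p 2.80e-04). It also rose by 0.64 in Trim71KO_empty (SE 0.096, adjusted p 8.02e-05). In the libraries labelled Ago2KO_empty, with replicate 2 kept, Ccng1 rose by 1.02 (SE 0.0965, adjusted p 8.85e-07). For Trim71 loss, 5 of the 10 were higher in Experiment 2 than in Experiment 1 by the test of the difference, and 2 to 6 with 1 library left out. That test called 10.1% of all genes in either direction, and plasmid, experiment and genotype cannot be told apart in it.

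**Figure D5:**
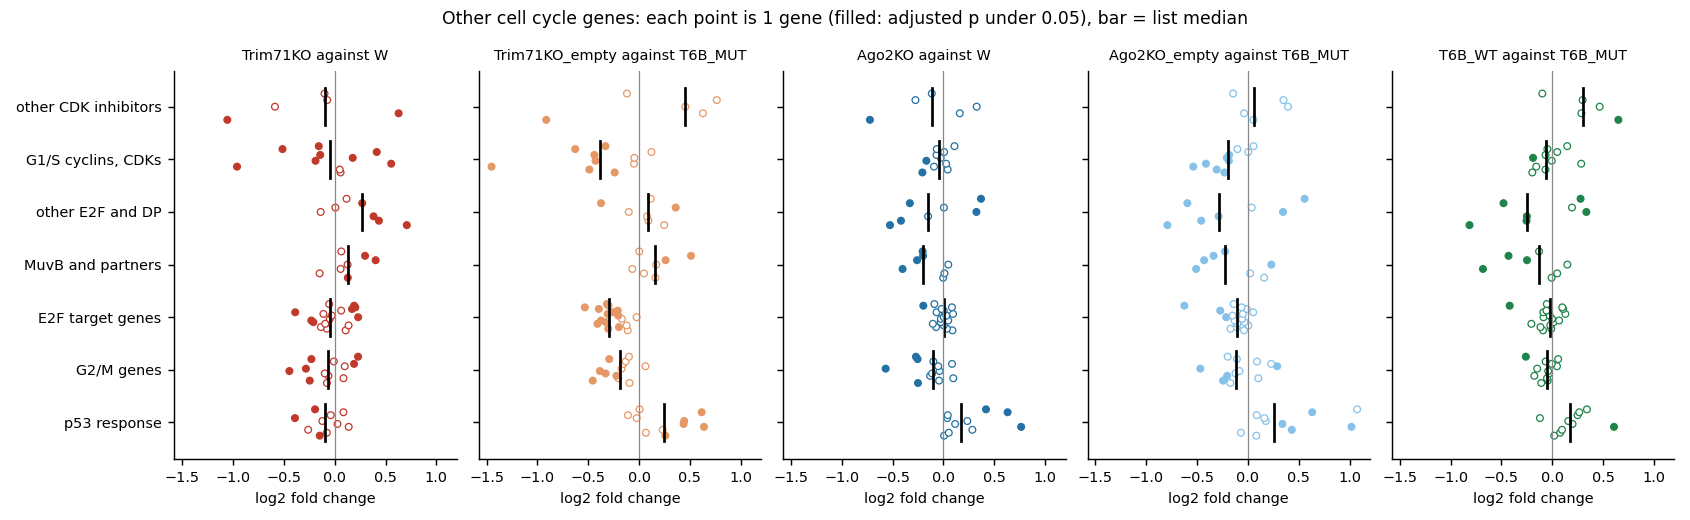
Log2 fold change (x axis) of the genes of 7 cell cycle lists in the 5 comparisons with a control. Each point is 1 gene, filled where the adjusted p was under 0.05, and black bars are list medians. The E2F target genes lie left of 0 in Trim71KO_empty (median -0.30) and around 0 in Trim71KO (median -0.0479).

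The genes whose pattern over the 21 libraries was most like that of the 4 known targets were ranked by Pearson's r of log2 CPM, centred within each experiment, among 12879 genes. For Rbl1 they were Topbp1, Tmem170 and Ndst1, each with r of 0.98. For Rbl2 they were Ddhd1 (0.93), Gm281 (0.93) and Tbl1xr1 (0.92), for Cdkn1a Mcm3ap (0.87), Ppp2r2c (0.85) and Plekha6 (0.85), and for E2f7 Prkar2a (0.89), Nhsl1 (0.86) and Ssh1 (0.86). These values are descriptions over libraries that share groups and depth.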

How the data were processed

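Groups were taken from titles and treatment labels. The table deposited by the authors holds, per the file headers, raw read counts and RPKM for 21 libraries and a gene length named for QuasR; its lowest row total was 17 counts. The submitters' processing notes name bcl2fastq 2.17, STAR 2.7.3a, GRCm38 and mm10. The annotation and the use of strand in counting are not given in the sources used here, so counts of all members except Cdkn1b and E2f1, which overlap no other annotated gene, may include reads of overlapping genes. Each gene length of the deposited table entered only through the authors' RPKM, used for levels between genes.

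Counts were tested with edgeR 4.0.16 in R 4.3.3 (robust quasi-likelihood test, TMM, filterByExpr with a minimum count of 10, Benjamini-Hochberg adjustment), with 9 libraries of Experiment 1, 12 of Experiment 2 or, for differences between experiments, all 21 in a fit. All 10 members passed the filter. TMM factors were 0.956 to 1.03 in the fits by experiment. Each standard error is the absolute log2 value divided by the root of its F, and none is given for values under 0.05. No replicate pair of the 21 agreed within sampling noise (chi-square per degree of freedom 3.59 to 80.7). The fit was tested on simulated data. Alternatives were DESeq2 1.42.0, RLE factors, no filter, only the compared groups, a replicate block, each library left out, the chromosome median subtracted, and RPKM ratios. Leaving libraries out for the other lists was chosen after seeing the data.

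Members, lists and tests were chosen with earlier results of these data known. Genes of the other lists were eligible to be named if they were among the 2 called genes that rose most or the 2 that fell most in a comparison. Likeness was ranked among genes with a symbol and a mean log2 CPM of at least 2. Symbols came from the deposited table or, where it gave none, a reference table of gene names, and coordinates and 3′ UTRs from GENCODE M21 (GRCm38). Seed and promoter searches were plain letter matches. Marker genes Col3a1, Postn, Olig2 and Elf5 were not analysed here.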

Additional observations from a re-analysis of the deposited data

Results flagged for a closer look

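Ccnd1 and Rbl1 passed the test of the difference between the Trim71 fold changes of both experiments (edgeR over all 21 libraries). Of all genes, 10.1% were called in that test. Ccnd1 had a log2 difference of -0.84, Experiment 2 minus Experiment 1, with a value of -0.23 in Trim71KO and -1.07 in Trim71KO_empty. Rbl1 had -0.39, with 1.05 in Trim71KO and 0.66 in Trim71KO_empty. In Ccnd1 the fall was larger in Experiment 2, and in Rbl1 the rise was smaller there. The Rbl1 call was lost without W replicate 3 or T6B_MUT replicate 3. Plasmid, experiment and genotype cannot be told apart in these differences.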

How the results depend on the processing

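Each member kept its direction under DESeq2, RLE factors, no filter on low counts, the replicate block and fits of only the compared groups. With 1 library left out, the number of members called was 3 to 5 in T6B_WT (3 without T6B_MUT replicate 1 or 3), 3 to 5 in Trim71KO_empty (3 without its replicate 1), 1 to 3 for the difference in Trim71 loss and 0 to 1 for that in Ago2 loss (1 without replicate 3 of the libraries labelled Ago2KO_empty). Directions that turned with 1 library left out belonged to values that were not called: E2f7 in Ago2KO (-0.0424 to 0.0572), Cdkn1b in T6B_WT (-0.0971 to 0.0339, with 0.00867 without T6B_WT replicate 2), and, in the libraries labelled Ago2KO_empty, Cdkn1b (-0.14 to 0.061, with 0.0271 without T6B_MUT replicate 3), Rbl1 (-0.11 to 0.00944) and E2f7 (-0.14 to 0.24). Between the Experiment 2 knockouts these were Cdkn1a (-0.17 to 0.16, with 0.15 when replicate 2 labelled Ago2KO_empty was left out) and E2f7 (-0.37 to 0.00691).

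Replicate numbers were not used as pairs in the main fits. Same-numbered libraries had correlations of deviations from -0.64 to 0.64, and in no comparison were all 3 above 0.1. These values rest on 3 libraries in a group and cannot exclude pairing. With the number as a replicate block, Rb1 in Trim71KO (0.24, adjusted p 0.0541), Cdkn1a in Trim71KO_empty (0.49, 0.0508) and Rb1 in Trim71KO_empty (0.36, 0.0734) were not called and Ccnd1 in the libraries labelled Ago2KO_empty was (0.32, 0.0397); no other call changed. In fits of only the compared groups, Ccnd2 was called in Trim71KO_empty (0.58, adjusted p 0.0104), Ccnd1 in the libraries labelled Ago2KO_empty (0.33, 0.0197), and E2f1 (0.25, 0.0349) and E2f8 (-0.32, 7.31e-04) in T6B_WT. Not called there were Ccnd2 in the libraries labelled Ago2KO_empty (1.48, 0.0563), Rb1 in Trim71KO (0.23, 0.0797) and Rbl2 between the Experiment 2 knockouts (-0.26, 0.116). Rb1 in Trim71KO and Rbl2 between the Experiment 2 knockouts were not called under DESeq2 (adjusted p 0.059 and 0.068), RLE factors (0.0533 and 0.0561) or no filter on low counts (0.051 and 0.0563) either. DESeq2 called Ccnd2 between the Experiment 2 knockouts (-0.87, 0.0355), and RLE factors Cdkn1b in Ago2KO (-0.18, 0.0466). The cause of these changes was not tested.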
